A study of Saccharomyces cerevisiae with 49 samples.

Results

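Cohesin is the ring complex that holds sister chromatids together from their replication until anaphase. The genes described include the 4 core subunits of this complex in Saccharomyces cerevisiae (SMC1, SMC3, MCD1 and IRR1), called ring genes or ring subunits here. The others are its regulator PDS5, its loaders SCC2 and SCC4, and its acetyltransferase ECO1. These 8 genes were chosen by gene symbol in the array's annotation. All 8 had 1 probe set each on an Affymetrix Yeast Genome 2.0 array, and all 8 were among the 5470 probe sets (5428 genes) with a signal above the level of probes for another yeast species.

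The samples were 49 successive harvests, every 5 min, of a continuous culture of the haploid strain CEN.PK113-7D (mating type a) that oscillated with a period of about 4 h at 30 °C and pH 4.0. The labels name no treatment and no altered gene. The labels give each sample a time, between 14 and 18 h, and a phase angle, from 244.11 to 614.63 degrees, but do not say which event defines phase 0. Angles are given here after subtraction of 360 where they exceed it. The first 47 samples were grouped by phase into 6 windows, each spanning 60 degrees and holding 8 samples, apart from phase 300-360, which holds 7. The last 2 samples, from the following cycle, form the second pass. The labels describe 2 models of fermentor without saying which held these samples, and name no replicates. The samples were taken as 1 culture, as an assumption, so p-values describe the spread among successive time points and treat them as independent. In the tests of windows that spread lies around the window means, so it takes in any rise or fall inside a window.

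In budding yeast the Smc1 and Smc3 proteins form the 2 long arms of the ring, and the kleisin Mcd1, also called Scc1, closes it. Irr1, also called Scc3, and Pds5 bind the kleisin, Scc2 and Scc4 load the ring onto chromosomes, and Eco1 acetylates Smc3 during DNA replication so that the ring stays closed. At anaphase the protease separase, Esp1, cuts Mcd1, so Mcd1 is made anew in each division cycle, and its gene belongs to those transcribed late in G1.

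The median signal of the arrays ran between 1456 and 2595, a ratio of 1.78, and signals below are those after every array was scaled to a median of 1910. The samples of phase 0-60 differed in RNA measures too. Their log2 ratio of the 3′ to the 5′ probe set of TDH1 was 0.316 ± 0.166 (SD, n = 8), against 0.0656 ± 0.0713 in the other 41 arrays, and that of ACT1 was 0.327 ± 0.130 against 0.227 ± 0.0891. Those of SPT15 and RIP1 were closer, at 1.10 ± 0.128 against 0.993 ± 0.0852 and 0.275 ± 0.123 against 0.218 ± 0.0923. The part of these ratios in the results was not tested. Of markers of the mating type, the summed signal of 7 a-specific genes was 30066 to 64014 in phase 0-60 against 18737 to 42571 in the other windows, and that of 4 alpha-specific genes 2539 to 4315 against 1960 to 2915. Of these 4, MF(ALPHA)1 was 4.58-fold higher in phase 0-60, SAG1 and STE3 were lower at ratios of 0.716 and 0.896, and MF(ALPHA)2 was not called. The summed signal of 6 meiotic genes was 1212 to 1750 in phase 0-60 against 1838 to 4066 in the other windows. No marker was at 0 in any sample: the lowest single values were 240 for ASG7, 50.6 for MF(ALPHA)2 and 21.6 for SPO13. In such bulk samples, fewer cells in a stage of the division cycle and less RNA per cell cannot be told apart.

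MCD1 gave a single sharp pulse in phase 0-60. The deposited signal of this kleisin gene ran between 276 and 5071 over the 49 samples. With each array at the same median it averaged 361 in phase 180-240, 430 in phase 240-300 and 627 in phase 300-360, and from 330.63 to 40.31 degrees it climbed with every sample. At 330.63 degrees it was 601, at 354.23 degrees 805 and at 2.04 degrees 842. The climb then steepened: the signal was 1279 at 9.70 degrees, 1746 at 17.35 degrees, 2526 at 25 degrees and 2897 at 32.66 degrees. The highest sample, 4193, came at 40.31 degrees. The next samples had 3734, 3469, 2489, 1769 and 988, the last at 78.58 degrees.

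MCD1 thus lay above the midpoint between its lowest and its highest sample in 6 successive samples, from 25 to 63.27 degrees. Its highest sample was 12.9 times its lowest, which came at 216.36 degrees. In phase 0-60 the lowest, median and highest signals were 842, 2712 and 4193, against 326, 438 and 2489 in the 39 samples of the other 5 windows. The ranges overlapped, through the first 3 samples of phase 0-60 and the samples of phase 60-120. The fitted difference was 2.08 on the log2 scale (SE 0.18), or 4.24-fold, with a limma adjusted p of 9.02e-14, and MCD1 ranked 98 of 5470 by this difference. Of all probe sets, 11.7% were at least 2-fold higher there.

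**Figure D1:**
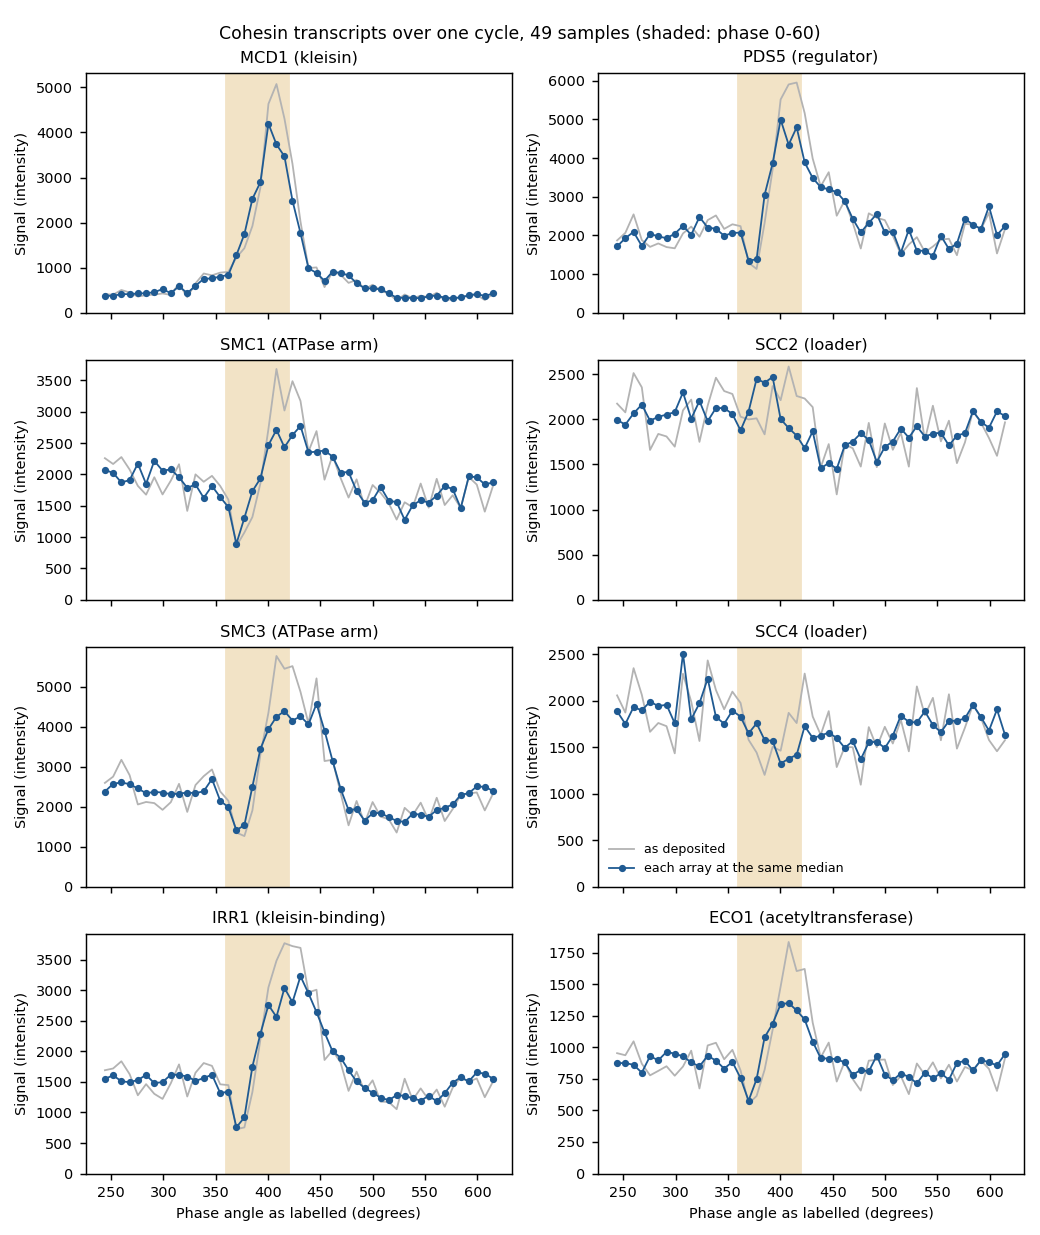
Signal (intensity) of the 8 genes in the 49 samples against the phase angle as labelled, in degrees. Blue points are signals with every array at a common median, grey lines are signals as deposited, and the shaded band is phase 0-60. MCD1 has a narrow peak of 4193 at 40.31 degrees after subtraction of 360, SMC1, SMC3, IRR1, PDS5 and ECO1 have their lowest sample at 9.70 degrees just before a broader rise, and SCC4 has its lowest sample, 1323, at 40.31 degrees.

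The 2 arm genes behaved otherwise. SMC1, whose protein is an ATPase arm of the ring, had a lowest, median and highest signal of 894, 1835 and 2712 in phase 0-60, against 1276, 1849 and 2774 in the other windows. The groups overlapped widely, and the difference of -0.09 (SE 0.10) did not pass the test (limma adjusted p = 0.422). SMC3, the other arm and the substrate of Eco1, had 1412, 2977 and 4394 in phase 0-60 against 1617, 2339 and 4577 in the other windows. These ranges overlapped as well, with a log2 difference of 0.19 (SE 0.13) and a limma adjusted p of 0.165.

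Both means hid a steep change inside the window. SMC1 had 1478 at 2.04 degrees, 894 at 9.70 degrees, 1307 at 17.35 degrees and 2712 at 47.97 degrees. SMC3 had 1988, 1412, 1541 and 4250 in the same samples. The samples of the first part of phase 0-60 were thus low and those of the second part high. The 4 samples of phase 0-30 averaged 1353 ± 353 for SMC1 and 1862 ± 495 for SMC3, and 4 samples of phase 30-60 averaged 2388 ± 325 for SMC1 and 4008 ± 418 for SMC3 (SD, n = 4 each).

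IRR1, whose protein binds the kleisin, followed SMC3. Its lowest, median and highest signals in phase 0-60 were 757, 2022 and 3039, against 1185, 1519 and 3232 in the other windows. The window held both the lowest sample of the cycle and some of the highest, and the log2 difference of 0.12 (SE 0.13) did not pass the test (limma adjusted p = 0.409). PDS5, whose protein maintains cohesion once it is made, had 1351, 3458 and 4993 in phase 0-60 against 1468, 2093 and 3889 in the other windows. PDS5 was higher by a log2 difference of 0.40 (SE 0.15), or 1.32-fold, with a limma adjusted p of 0.0119, although its lowest sample of all 49 was in this window. The call did not hold in every subset of the samples: in the even samples, every other one of the series, the difference was 0.31 with a limma adjusted p of 0.186.

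The loaders did not share the pulse. SCC2, the loader that stimulates the ATPase of the ring, had 1820, 2045 and 2470 in phase 0-60, against 1452, 1899 and 2299 in the other windows. The ranges overlapped over most of their length, and SCC2 was 1.12-fold higher (log2 difference 0.17, SE 0.05, limma adjusted p = 0.00142). Its highest samples, 2449, 2407 and 2470, lay at 17.35, 25 and 32.66 degrees, earlier than the maximum of MCD1, although with the signals as deposited its highest sample was at 47.97 degrees. SCC4, the partner of Scc2, had 1323, 1572 and 1828 in phase 0-60 against 1369, 1771 and 2506 in the other windows. SCC4 was lower, at a ratio of 0.875 (log2 difference -0.19, SE 0.05, limma adjusted p = 0.000666), and its lowest sample lay at 40.31 degrees, where MCD1 was highest, or, with the signals as deposited, at 116.85 degrees.

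ECO1, the acetyltransferase, had 577, 1133 and 1350 in phase 0-60 against 715, 875 and 1220 in the other windows. Its 4 samples of phase 30-60 averaged 1292 ± 75.3 (SD, n = 4), and 3 of them exceeded every sample of the other windows. ECO1 was 1.15-fold higher over the whole window (log2 difference 0.21, SE 0.09, limma adjusted p = 0.0258).

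In all, 4 of the 8 genes were high in phase 0-60, where 39.9% of all probe sets were, and 1 was low, where 43% of all probe sets were. The share of high members was thus near that of the array, and the median log2 difference of the 8 genes was 0.18, against -0.03 over all probe sets. Among the calls, those other than MCD1 were of 1.32-fold or less, and 3 of these 4 depended on the scaling. With signals as deposited, SCC2 (limma adjusted p = 0.0506), SCC4 (0.0912) and ECO1 (0.122) were no longer called. In the odd or the even samples alone, which hold fewer arrays, 2 of the 8 genes were high. The share of all probe sets high in those subsets is not given here.

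**Figure D2:**
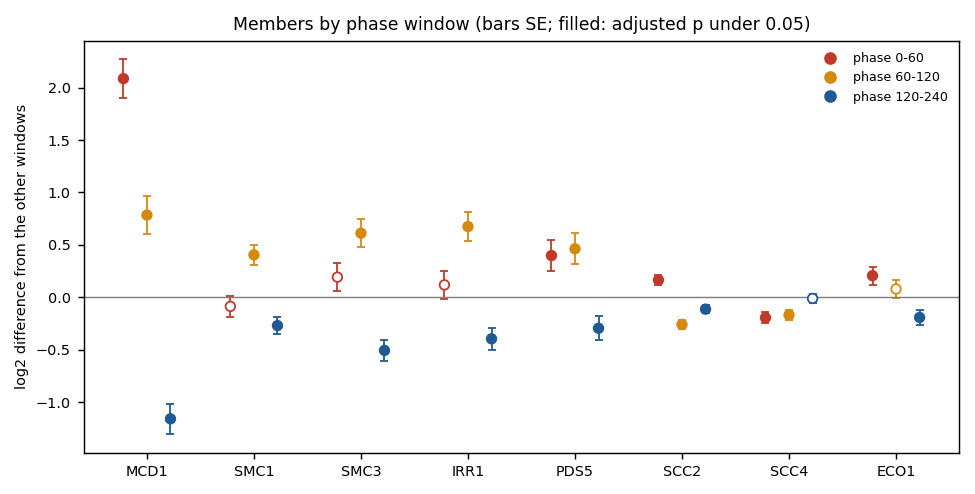
Log2 difference of each gene in phase 0-60, 60-120 and 120-240 from the other windows; bars are SE, filled points have a limma adjusted p under 0.05, and open points do not. MCD1 stands at 2.08 in phase 0-60, the genes SMC1, SMC3, IRR1 and PDS5 lie between 0.41 and 0.68 in phase 60-120, and all but SCC4 are below 0 and filled in phase 120-240.

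In phase 60-120 the 4 ring genes and PDS5 were high together. IRR1 had a lowest, median and highest signal of 1692, 2477 and 3232, against 757, 1508 and 3039 in the other windows. SMC3 had 1918, 3983 and 4577, against 1412, 2327 and 4394, and SMC1 had 2031, 2358 and 2774, against 894, 1800 and 2712. In each case the lowest sample of phase 60-120 lay above the median of the other windows except for SMC3, whose lowest sample came at 116.85 degrees.

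IRR1 was 1.60-fold higher (log2 difference 0.68, SE 0.13, limma adjusted p = 3.06e-05), SMC3 1.53-fold (0.61, SE 0.13, limma adjusted p = 7.96e-05) and SMC1 1.32-fold (0.41, SE 0.10, limma adjusted p = 0.000405). PDS5 was 1.38-fold higher (0.46, SE 0.15, limma adjusted p = 0.00525), and this call was lost with a linear term in sampling time (limma adjusted p = 0.138) and in the odd samples (0.210). MCD1, already falling through this window, was 1.72-fold higher on average (0.78, SE 0.18, limma adjusted p = 0.000247), with a median of 899 against 438 in the other windows. The mean of MCD1 rested on the first samples of the window, since from 78.58 degrees onward each was under 1000.

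The loader genes were low in phase 60-120, where the ring genes and PDS5 were high. SCC2 had 1452, 1696 and 1868 in phase 60-120 against 1528, 1980 and 2470 in the other windows, a ratio of 0.836 (log2 difference -0.26, SE 0.05, limma adjusted p = 7.75e-06). SCC4 had 1369, 1599 and 1726 against 1323, 1782 and 2506, a ratio of 0.891 (-0.17, SE 0.05, limma adjusted p = 0.00388), and this call was lost with the values as deposited (0.140), with the term in time (0.140) and in the even samples (0.227). ECO1 had 781, 908 and 1220 against 577, 875 and 1350 and did not pass the test (0.08, SE 0.09, limma adjusted p = 0.405). Thus 5 of the 8 genes were high in phase 60-120, against 38% of all probe sets, and 2 were low, against 30.7% of them. The median difference was 0.43 for the 8 genes and 0.07 for all probe sets.

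In phase 120-240, 7 of the 8 cohesin transcripts were low, as were 25.2% of all probe sets. MCD1 had a lowest, median and highest signal of 326, 376 and 659, against 377, 805 and 4193 in the other windows, a ratio of 0.449 (log2 difference -1.16, SE 0.14, limma adjusted p = 3.56e-08). SMC3 had 1617, 1841 and 2509 against 1412, 2459 and 4577, a ratio of 0.705 (-0.50, SE 0.10, limma adjusted p = 0.000142). IRR1 had 1185, 1299 and 1657 against 757, 1616 and 3232, a ratio of 0.761 (-0.39, SE 0.11, limma adjusted p = 0.00257). For these genes most samples of phase 120-240 lay under the median of the other windows.

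The differences of the others in phase 120-240 were smaller. They were -0.27 for SMC1 (limma adjusted p = 0.00455), -0.29 for PDS5 (0.0318), -0.19 for ECO1 (0.0192), -0.11 for SCC2 (0.0122) and -0.01 for SCC4 (0.850). The 7 low genes stood against 25.2% of all probe sets, and 0 were high, against 27.8%, with a median of -0.28 against 0.01. Sampling time and this window could not be separated well in a culture followed for about 1 cycle: with a linear term in time 0 of the 8 genes and 1 of all probe sets were low, and the difference of MCD1 was then -1.76 with a limma adjusted p of 0.969. With the values as deposited 3 of the 8 genes were low.

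Over the whole cycle 7 of the 8 genes passed the F test of a cosine and a sine term in phase angle, as did 88.4% of all probe sets. The single cosine took up a share of the log2 variance of 0.773 for MCD1, 0.506 for SCC2 and 0.504 for SCC4. That share was 0.340 for PDS5, 0.237 for IRR1, 0.233 for SMC3 and 0.182 for ECO1, so the peaks of these are rough. The SE of a peak assumes the shape of a cosine. The fitted peak-to-trough difference of MCD1 was 2.53 (SE 0.20) with a peak at 43.2 degrees (SE 4.6), and its limma adjusted p was 1.79e-14. SMC3, IRR1 and PDS5 had 0.59, 0.58 and 0.71 with peaks at 35.9 (SE 15.4), 56.7 (SE 15.6) and 56.4 (SE 12.1) degrees. The fitted peaks of the loader genes came before phase 0, that of SCC2 with 0.35 at 313.1 degrees (SE 8.4, limma adjusted p = 1.02e-06) and that of SCC4 with 0.34 at 276.3 degrees (SE 9.0, limma adjusted p = 1.06e-06). With the values as deposited SCC4 had 0.24 and was not called (limma adjusted p = 0.0802).

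ECO1 had a peak-to-trough difference of 0.28 with a limma adjusted p of 0.0117, and SMC1 had 0.20 (SE 0.12) and was not called (limma adjusted p = 0.264). A single cosine describes a dip followed by a rise poorly. With a second harmonic SMC1 was called as well, with a limma adjusted p of 1.11e-07 and a fitted peak-to-trough difference of 0.77. The single cosine already called 88.4% of all probe sets, so such a call is not particular to these genes. The fitted peaks then lay at 47 degrees for MCD1, 60 for ECO1, 67 for PDS5, 68 for SMC3, 74 for IRR1 and 81 for SMC1. The fitted peaks of SCC2 and SCC4 lay at 347 and 306 degrees. The median peak-to-trough difference of the 8 genes was 0.46 with the single cosine, against 0.53 over all probe sets.

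The order in which the transcripts came up and went down could be read from single samples 5 min apart. ECO1 was above its midpoint from 25 to 70.93 degrees (7 samples), PDS5 from 32.66 to 86.24 degrees (8 samples), and SMC3 and IRR1 from 32.66 to 101.55 degrees (10 samples). The start was within 1 sampling step for these genes and MCD1, and among them MCD1 fell below its midpoint first, after 63.27 degrees. Each midpoint depends on a single lowest and a single highest sample. For SMC1, SMC3, IRR1, PDS5 and ECO1 the lowest was the sample at 9.70 degrees, so their starts and ends rest in part on that sample. For SMC1, with a lowest sample of 894, the midpoint was 1834. SMC1 was above it in a run around its highest sample, from 32.66 to 116.85 degrees, but again in every sample of phase 240-300, so no end of a high state is given for it. With the signals as deposited the ends lay at 63.27 degrees for MCD1, 70.93 degrees for PDS5 and ECO1 and 86.24 degrees for SMC3 and IRR1.

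**Figure D3:**
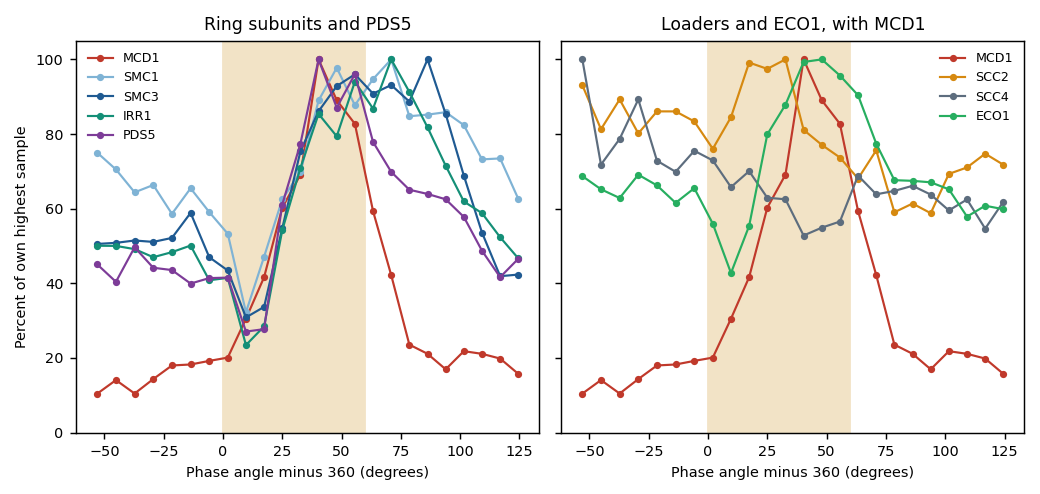
Signal of each gene as percent of its own highest sample against the phase angle minus 360, in degrees, from before to after phase 0-60 (shaded); each point is a sample. MCD1 is back under 25% at 78.58 degrees, when SMC3 is still at 88.7%, SMC1 at 84.8%, IRR1 at 91.3% and PDS5 at 65.1% of the highest sample.

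At 78.58 degrees MCD1 had 23.6% of its highest signal, while SMC3 had 88.7%, IRR1 91.3%, SMC1 84.8% and PDS5 65.1% of theirs. SCC2 was then at 59.0% and close to its lowest value, 1452 at 93.89 degrees. The sample in which each subunit was highest turned with the scaling. With arrays at the same median it was at 40.31 degrees for MCD1, 70.93 degrees for SMC1 and IRR1 and 86.24 degrees for SMC3, but as deposited it was at 47.97 degrees for MCD1, SMC1 and SMC3 and at 55.62 degrees for IRR1.

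Directly before the rise, 5 of the genes reached their lowest value of the 49 samples, all in the sample at 9.70 degrees, or at 17.35 degrees for SMC3 and PDS5 with the signals as deposited. Mean signals of the samples at 9.70 and 17.35 degrees, against those of the 4 samples before them, were 838 against 1460 for IRR1, 1477 against 2305 for SMC3 and 1367 against 2077 for PDS5. They were 1101 against 1640 for SMC1 and 663 against 841 for ECO1. For each of these 5 genes both samples were below all 4 earlier ones.

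The ratios were 0.574 for IRR1, 0.641 for SMC3, 0.658 for PDS5, 0.671 for SMC1 and 0.787 for ECO1, while MCD1 had 1512 against 791, a ratio of 1.91. Over all probe sets the median ratio was 1.04, and 31.4% lay below 0.8, so a low value there was common on the array, and 16.1% of probe sets had a lower ratio than IRR1. These samples were picked after their values were seen, and no test was made. The array medians at 9.70 and 17.35 degrees were 1830 and 1569, against 2065 to 2212 in the 4 samples before, and with the signals as deposited the ratios were lower still, 0.457 for IRR1 and 0.512 for SMC3, with a median of 0.836 over all probe sets. The ACT1 log2 3′ to 5′ ratio in these 2 arrays was 0.468 on average, and its part in the dip was not tested. SCC2 turned with the scaling, at 1.11 with arrays at the same median and 0.883 as deposited.

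The window was also moved by 30 degrees, a choice made after the data were seen. Phase 30-90 held the highest sample of MCD1, SMC1, SMC3, IRR1, PDS5 and ECO1, but not the whole rise of each. MCD1 was above its midpoint from 25 degrees, and SMC3 and IRR1 stayed above theirs to 101.55 degrees. In phase 30-90 against the other shifted windows, MCD1 was 4.14-fold higher, SMC3, IRR1 and PDS5 were each 1.91-fold higher, SMC1 1.39-fold and ECO1 1.36-fold. The limma adjusted p was 2.80e-11 for SMC3, 7.64e-12 for IRR1, 4.22e-11 for PDS5 and 3.59e-06 for SMC1. With this window 6 of the 8 genes were high, where 25.6% of all probe sets were, and 1, SCC4, was low at a ratio of 0.860, where 29% were. SCC2 turned to -0.094 there and was not called (limma adjusted p = 0.128). Because this window was placed on the rise of these genes, their high calls and p-values follow in part from that choice. They are no further support, and the share over all probe sets had no such choice behind it. Without the samples at 9.70 and 17.35 degrees, also left out after the data were seen, SMC3 at 0.48 and IRR1 at 0.47 were high in phase 0-60. Those samples were the lowest of the window for both genes, so a higher mean without them was bound to follow and is no further support.

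MCD1 moved relative to each of its partners. The log2 ratio of MCD1 to another gene within an array does not depend on the scaling, and its mean in phase 0-60 was set against the mean of the other 5 windows in 47 samples. The ratio of MCD1 to SMC1 was 0.37 ± 0.49 in the 8 samples of phase 0-60 and -1.80 ± 0.55 in the 39 samples of the other windows (mean and SD). That to SMC3 averaged -0.23 ± 0.44 against -2.13 ± 0.49. In 7 of the 8 samples of phase 0-60, the ratio to SMC1, SMC3, IRR1, PDS5 or ECO1 exceeded that in every sample of the other windows.

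The differences of these ratios were 2.17 for SMC1, 1.89 for SMC3, 1.97 for IRR1, 1.69 for PDS5, 1.92 for SCC2, 2.28 for SCC4 and 1.88 for ECO1. In two-sided permutation tests with 100000 resamples the p was 1e-05, the smallest they can give, for all pairs but SCC2 (2e-05). After Benjamini-Hochberg adjustment over the 7 pairs p was 1.17e-05, and 2e-05 for SCC2. The ratios to the loaders spread more within the window: that to SCC2 exceeded every other sample in 3 of 8 samples and that to SCC4 in 5 of 8. Permutation ignores the order of successive samples.

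Across the 49 samples, which share a time course, the log2 signals of SMC3 and IRR1 correlated most among the pairs of these genes, with Pearson's r of 0.945, followed by IRR1 and PDS5 with 0.896 and SMC1 and IRR1 with 0.866. MCD1 correlated with PDS5 at 0.707, SMC3 at 0.585, SMC1 at 0.358 and SCC4 at -0.593. Without the 8 samples of phase 0-60 the correlation of MCD1 with SMC1 was 0.645 and with IRR1 0.780, both higher than over all samples. The loaders SCC2 and SCC4 correlated at 0.365 over all samples and at 0.646 without phase 0-60. These correlations are descriptions of a time series.

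The genes on the array most like MCD1 over the 49 samples were CSI2 (Pearson's r 0.980), TOS4 (0.965), MIF2, which encodes a centromere protein (0.958), PXL1, which encodes a protein of polarised growth (0.953), and RNR1, which encodes the large subunit of ribonucleotide reductase (0.953). Their highest samples lay between 32.66 and 55.62 degrees. No other ring subunit was among these 5. The genes most like SMC1 were IRR1 (0.866) and SMC3 (0.851), and those most like SMC3 were IRR1 and then RFA1 (0.903), which encodes a subunit of the single-strand DNA binding protein RPA. IRR1 was most like SMC3 and then MPD1 (0.923), a protein disulfide isomerase.

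PDS5 was most like RFA1 (0.904) and CTF18 (0.903), whose protein loads the replication clamp, and ECO1 was most like RFA2 (0.936), another RPA subunit, and PMS1 (0.904), a mismatch repair gene. SCC2 was most like RTP1 (0.877) and YOR385W (0.855), and SCC4 was most like HSP31 (0.802) and ERG24 (0.767), an enzyme of ergosterol synthesis. No member overlaps a neighbouring gene in the RefSeq table. Among the neighbours measured, ULI1 beside ECO1 had the highest correlation with a member (0.798), followed by NVJ3 beside SCC2 (0.635) and JEM1 beside SMC3 (0.612).

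Of 20 genes of DNA replication and the G1/S step, at which the kleisin gene is known to be transcribed, 17 were high in phase 0-60 and 0 low, where 39.9% and 43% of all probe sets were. Their median log2 difference was 0.66. CLB6, an S-phase cyclin, was 4.18-fold higher, RNR1 3.54-fold and CDC45, a part of the replicative helicase, 2.04-fold. In phase 60-120, 6 of the 20 were high and 3 low, where 38% and 30.7% of all probe sets were. In phase 120-240, 0 were high and 18 low, where 27.8% and 25.2% of all probe sets were. MCD1, at 4.24-fold in phase 0-60, thus lay beside CLB6 in size, and the other members lay below RNR1 and CDC45.

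Of 14 genes for the establishment and release of cohesion, phase 0-60 had 6 high and 5 low, against 39.9% and 43% of all probe sets, and the median difference was -0.0038. POL30, the replication clamp PCNA, was 2.58-fold higher, ELG1, which unloads that clamp, 1.99-fold, and CTF18 1.53-fold. CDC5, the polo kinase of mitosis, stood at a ratio of 0.599, REC8, the meiotic kleisin, at 0.644, and SGO1, shugoshin of the centromere, at 0.775. The list thus held members that moved either way. REC8 had a mean signal of 228 ± 41.1 across the 8 samples of phase 0-60, against 351 ± 43.1 across the 39 others, opposite in direction to MCD1. In 1 of 12 alternatives REC8 was no longer called (limma adjusted p = 0.579), and its smallest difference among them was -0.07. SGO1 lost its call in 3 of 12 alternatives.

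Some genes of the release step were followed as well. PDS1, or securin, which holds separase inactive, ESP1, which encodes separase, CDC5 and RAD61 were picked after their values were seen. PDS1 was higher by a log2 difference of 0.53 in phase 0-60 and by 0.81 in phase 60-120, with a cosine peak at 73.9 degrees. ESP1 was lower by a log2 difference of -0.21 in phase 0-60 and higher by 0.47 in phase 60-120, with a peak at 120.1 degrees, and CDC5 was higher by 1.36 in phase 120-240, with a peak at 170.0 degrees. RAD61, the release factor also called Wpl1, was not called in phase 0-60 (log2 difference -0.086). It was higher by 0.41 in phase 60-120 (limma adjusted p = 0.0027). Its cosine peak at 34.9 degrees had an SE of 18.5 degrees, so it could not be placed before or after that of MCD1. In order of cosine peaks, MCD1 at 43.2 degrees was followed by PDS1, ESP1 and CDC5, and the separation of each from the next exceeded the SE of the peaks, which were 4.6, 3.3, 6.3 and 2.2 degrees.

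Condensin and the Smc5/6 complex are relatives of cohesin. Condensin compacts chromosomes in mitosis, and of its 5 genes YCS4 (1.34-fold) and YCG1 (1.24-fold) were high in phase 0-60 while SMC4 was low at a ratio of 0.893. The median over condensin was -0.01. The Smc5/6 complex acts in DNA repair, and 5 of its 8 genes were high and 0 low (median 0.25, against 39.9% and 43% and a median of -0.03 over all probe sets), among them MMS21 (1.52-fold), NSE1 (1.40-fold) and SMC6 (1.26-fold). MMS21 and NSE1 turned to -0.11 and -0.20 in phase 30-90. In neither complex did a called gene exceed the log2 difference of 0.60 of MMS21.

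**Figure D4:**
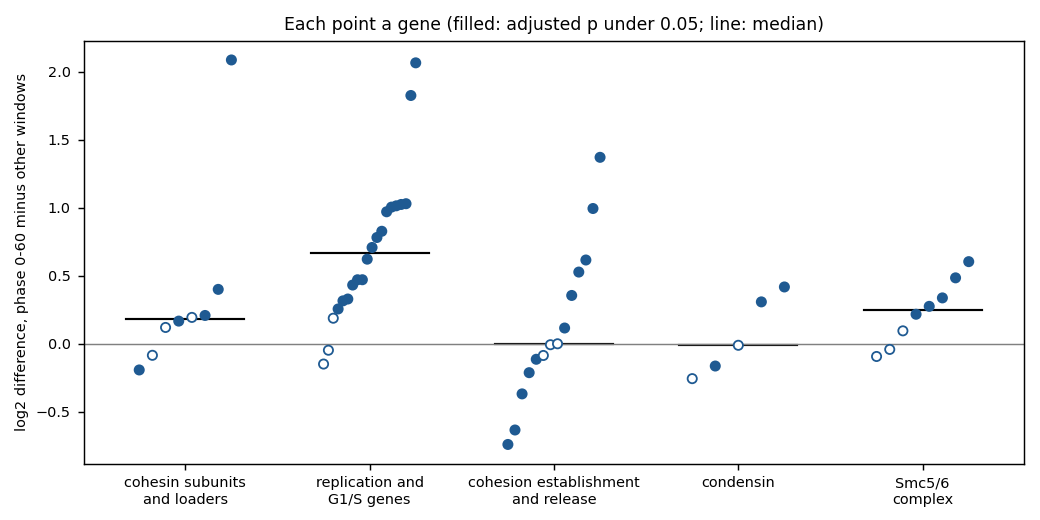
Log2 difference between phase 0-60 and the other windows, with each point a gene, filled where the limma adjusted p is under 0.05, and a line at each list's median. MCD1, at 2.08, stands apart from the other 7 cohesin genes, which lie between -0.19 and 0.40, while 17 of 20 replication and G1/S genes are filled and above 0.

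The second pass gave a narrow check at a part of the cycle where cohesin transcripts changed little. Its 2 samples, at 246.97 and 254.63 degrees, were compared with a curve of 2 harmonics fitted to all 49 samples. MCD1 had 374 and 430 in them, against 380 and 377 in the first 2 samples of the series, nearly a cycle earlier. SMC3 had 2497 and 2399, against 2381 and 2573, and SCC2 had 2088 and 2037, against 1994 and 1942. The values of the passes lay close together for these genes.

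The differences from the curve ran from -0.18 for SMC1 to 0.07 for SCC2, and that of MCD1 was 0.00 (SE 0.27). Of the 8 genes 0 were high and 0 low at a limma adjusted p under 0.05, and 0 had an unadjusted p under 0.05, against 0% high and 0.0183% low of all probe sets, which is 1 probe set. With 2 samples the comparison could have missed differences of the size of these SEs, and the pulse itself was seen in 1 cycle only.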

How the data were processed

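RNA of 49 samples was hybridised to Affymetrix Yeast Genome 2.0 arrays, 1 per sample, after oligo(dT)-primed amplification, per the labels' protocols. GCOS, per the submitters' processing notes, gave the deposited signal of each probe set, which is a linear intensity. No version or setting of GCOS is given in the sources used here. Of 10928 probe sets, 5498 have 1 S. cerevisiae gene in the platform annotation, in which 12 symbols were updated through the gene ID, and those with a median signal over 11.2, the 75th percentile of 1746 probe sets for another yeast species, were tested (5470). Each array was set to the same median, a floor of 1 was applied, and values were put on the log2 scale. Because probes match a reference strain, bases that differ in CEN.PK can lower a signal. Signals of different probe sets are not compared with each other.

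Samples were grouped by the labels' phase angle. Tests used lmFit and eBayes of limma 3.58.1 in R 4.3.3, with Benjamini-Hochberg adjustment over all 5470 probe sets at 0.05. They were an F test of a cosine and a sine term in phase angle, contrasts of windows with the mean of the others, and a term for the second pass. "High", "higher", "low" and "lower" of a window refer to that threshold. Ratios of MCD1 to each other gene were tested by permutation. The number of arrays limits the precision. The tests were tested on simulated data. Genes named beside the 8 were, per list, up to 3 with the largest difference in each direction among those called in phase 0-60, and the genes with the highest correlation, 5 for MCD1 and 2 for each other gene. PDS1, ESP1 and RAD61 fall outside this. The members, lists and tests were chosen with earlier results of these data known. Alternatives were values as deposited, quantile normalization, other filters and an added 16, terms in time and array number, every other sample (odd or even), an intensity trend, 2 harmonics, and leaving out phase 0-60 or a sample of the second pass. The shifted window and leaving out 2 samples were added after the data were seen. Other steps used Python 3.11.15 with matplotlib 3.10.9, numpy 2.4.6 and pandas 2.3.3. A RefSeq gene table gave the neighbours, and no coordinates or sequences are printed.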

Additional observations from a re-analysis of the deposited data

Results flagged for a closer look

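In 2 of 48 groups of samples (a gene in a window), the lowest or highest sample stood apart from the rest by Dixon's criterion, which chance alone meets in about 1 in 20 groups. IRR1 had 1319 at 354.23 degrees, the lowest of 7 samples in phase 300-360, where the next was 1519, and the gap was 0.686 of the range. ECO1 had 935 at 132.16 degrees, the highest of 8 samples in phase 120-180, where the next was 808, and the gap was 0.542 of the range.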

How the results depend on the processing

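Of the counts and of the differences between MCD1 and its partners, 203 values under the alternatives stayed within their margin of the reported value and 27 moved. Of the values of single genes, 569 kept direction and side of the threshold, 47 lost the call, 9 gained it and 3 reversed. The causes were not tested.

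The number of the 8 genes called for cycling was 4 in the odd samples. The odd and the even samples hold fewer arrays, and calls fell over all probe sets too. Those low in phase 120-240 fell from 1379 to 461 in the odd samples. A lower count in these subsets thus cannot be read as particular to the 8 genes. In phase 0-60, 2 were high as deposited, in the odd and in the even samples, and 0 low as deposited and in the even samples. The shifted window, phase 30-90, called 1402 probe sets high, and SCC2, MMS21 and NSE1 reversed to -0.094, -0.11 and -0.20 there. In phase 60-120, 1 of the 8 was low as deposited, with the term in time and in the even samples, which called 1250 probe sets high. In phase 120-240, probe sets high and low numbered 680 and 836 as deposited, 0 and 1 with the term in time, 590 and 461 in the odd samples, 383 and 495 in the even samples, and 519 and 599 without phase 0-60. Of the 8 genes, 3 were low there as deposited, 0 with the term in time, 2 in the odd and 3 in the even samples.

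The second pass called 0 probe sets low as deposited and 0 to 1 with either of its samples left out. The ratios of MCD1 to its partners kept their call under every alternative run, with differences from 1.31 (PDS5, against the neighbouring windows) to 2.58 (SCC4, odd samples). No paired analysis was possible because the labels give no replicate numbers. The pulse was seen in 1 cycle, of samples taken as 1 culture.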
